A study of Mus musculus with 16 samples.

Results

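The genes described here are 10 genes of TGF-beta and BMP signalling and of its readouts, out of 22293 genes with a single row in the deposited tables. They are the ligands Tgfb1, Tgfb2 and Tgfb3, the inhibitory Smads Smad6 and Smad7, the Id factors Id1, Id2 and Id3, and the matricellular genes Cyr61 (also named Ccn1) and Ctgf (also named Ccn2). They were looked up by symbol and all 10 were found. They had been chosen from their FPKM levels across the 6 groups of libraries, so their levels, their differences and how many of them passed a threshold are given as a description and support nothing. The tests reported are those of other genes of the pathway, which were also listed with earlier results of these data known.

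The libraries were made from total RNA of male mice of strain C57;ICR, lacking miR-202 (KO) or wildtype (WT). Isolated spermatogonia were taken at 6 to 7 days after birth (2 KO and 2 WT libraries), stem cells of the spermatogonial lineage were cultured from animals of the same age (3 KO and 3 WT), and isolated spermatocytes came from adults (3 KO and 3 WT). The cultures were kept in a medium with GDNF and bFGF, the growth factors on which such cells depend. The labels call the replicates biological and give neither the allele that removes miR-202 nor the number of animals behind a library. Levels are in FPKM, which counts sequenced fragments relative to transcript length and to library size, so that levels can be compared between genes of different length.

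TGF-beta ligands are secreted in a latent form and, once released, bring together type I and type II receptors that phosphorylate Smad2 and Smad3, while BMP ligands act through Smad1 and Smad5. Smad6 and Smad7 are induced by the same signals and block them. The Id genes are classical BMP targets whose proteins bind E proteins and keep them from DNA, and Cyr61 and Ctgf are secreted CCN proteins that respond to Yap1 with Tead factors and to TGF-beta. In the testis these genes are used by Sertoli, peritubular and interstitial cells as well as by germ cells.

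The microRNA removed in the KO is processed to a pair of mature arms, shown here because their seeds, bases 2 to 8 in capitals, define the sites searched for in the 10 genes. Sequences are from RefSeq, 5′ to 3′, from the minus strand of GRCm38.p6, at chr7:139957732-139957752 for the 5p arm and chr7:139957695-139957716 for the 3p arm.
mmu-miR-202-5p: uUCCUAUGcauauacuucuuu
mmu-miR-202-3p: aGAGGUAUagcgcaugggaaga
The complement of the 5p seed, CATAGGA, and that of the 3p seed, ATACCTC, were searched for on the sense strand of the longest annotated 3′ UTR of each gene (GENCODE M21). Neither was found in any of the 10 genes, whereas 7.64% of 21020 genes held the 5p match and 5.9% the 3p match. This says only that these letters are not in these UTRs.

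The precursor gene Mir202 was listed at 0 in 16 of 16 libraries, KO and WT alike, so it did not check the genotype labels. Absolute depth was not given. Depth relative to 1 WT spermatogonia library, recovered from what a single fragment is worth in low values, was 0.709 to 1.05 across libraries. Libraries of a group correlated at 0.982 or above (Pearson, log2 scale, across genes, which are not independent replicates). Spermatogonia libraries carried Sertoli RNA, with a summed level of 9 Sertoli markers of 1246 to 1489 FPKM in KO and 1224 to 1853 FPKM in WT. In the cultures the same markers summed to 8.98 to 11.3 FPKM in KO and 10.4 to 17.8 FPKM in WT. Markers of undifferentiated spermatogonia were present in spermatogonia (172 to 214 FPKM in KO, 168 to 184 FPKM in WT) and higher in the cultures (433 to 499 FPKM in KO, 315 to 418 FPKM in WT), and the spermatocytes carried those of meiotic cells (5571 to 5787 FPKM in KO, 5730 to 6238 FPKM in WT). The spermatocytes also carried spermatid markers (1333 to 4795 FPKM in KO, 2083 to 3921 FPKM in WT). Their Leydig markers summed to 12.7 to 112 FPKM in KO and 10.7 to 51.7 FPKM in WT. In such mixed preparations fewer cells of a type and less RNA per cell cannot be told apart.

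In cultured stem cells 7 of the 10 genes were lower in KO than in WT, namely Tgfb2, Tgfb3, Id1, Id2, Id3, Cyr61 and Ctgf, and in each of them all 3 KO libraries lay below all 3 WT libraries. Their KO means were 0.243 to 0.463 times the WT means. Tgfb1, Smad6 and Smad7 were 1.1 to 1.25 times as high in KO, with overlapping libraries. In spermatogonia the clearest differences were in Id1 and Id3, with KO means of 0.307 and 0.521 times the WT means, while Cyr61 stood at 0.966 times its WT mean. In spermatocytes 8 of the 10 genes did not reach 1 FPKM in 2 of the 6 libraries.

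**Figure D1:**
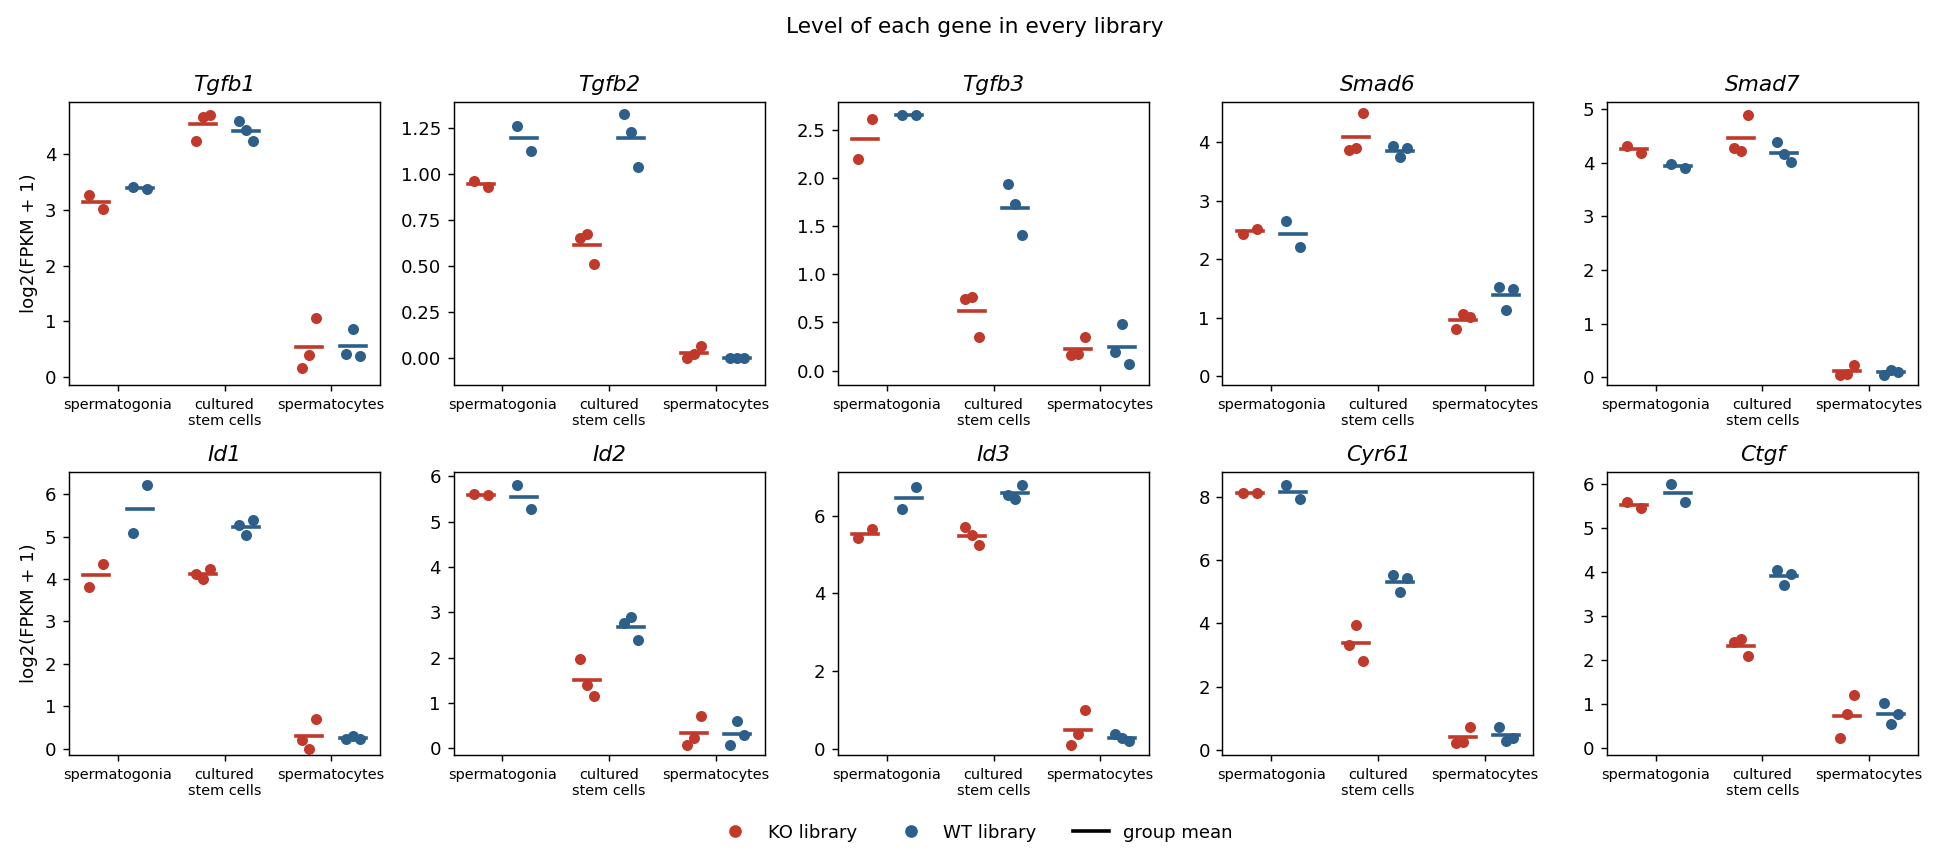
Level of each of the 10 genes, as log2(FPKM + 1), in every library of spermatogonia, cultured stem cells and spermatocytes, with KO libraries in red to the left of WT libraries in blue; points are libraries and lines are group means, and each panel has its own scale. In cultured stem cells the KO and WT points of Tgfb2, Tgfb3, Id1, Id2, Id3, Cyr61 and Ctgf do not overlap, and every gene has its lowest group means in spermatocytes.

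Among the ligands, Tgfb1, the form most widely made in the body, was the most abundant. Cultured stem cells had 17.8, 24.6 and 25.2 FPKM in KO, against 23.2, 20.6 and 17.9 FPKM in WT. Spermatogonia had 8.61 and 7.06 FPKM in KO, against 9.7 and 9.35 FPKM in WT. The cultures thus overlapped between genotypes, and the spermatogonia KO libraries lay just under the WT ones. Differences between KO and WT are given from here on as the difference of mean log2(FPKM + 1), called the log2 difference, with its standard error (SE) from a model over all 16 libraries; it understates the change of genes near or below 1 FPKM. That of Tgfb1 was 0.12 (SE 0.21) in the cultures and -0.26 (SE 0.26) in spermatogonia. By group mean its level ran from cultures (22.5 FPKM in KO, 20.5 FPKM in WT) over spermatogonia (7.83 and 9.53 FPKM in KO and WT) to spermatocytes (0.5 and 0.48 FPKM in KO and WT), and libraries of the 3 cell types did not overlap.

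Tgfb3, a ligand known from epithelial fusion and from the blood-testis barrier of rodents, differed most among the ligands. It had 0.671, 0.703 and 0.272 FPKM in KO cultures, against 2.82, 2.31 and 1.66 FPKM in WT cultures. The lowest WT library was above the highest KO library by more than the whole range of the KO libraries, with a log2 difference of -1.07 (SE 0.17). Spermatogonia had 3.59 and 5.1 FPKM in KO, against 5.27 and 5.3 FPKM in WT, so the upper KO library was close to both WT libraries. The log2 difference there was -0.25 (SE 0.2).

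Tgfb2, a ligand needed for heart, eye and urogenital development in mice, was near the lower limit of what was tested. It had 0.574, 0.597 and 0.426 FPKM in KO cultures, against 1.51, 1.35 and 1.05 FPKM in WT cultures, with a log2 difference of -0.58 (SE 0.1). The values in spermatogonia were 0.946 and 0.904 FPKM in KO, against 1.4 and 1.18 FPKM in WT, with a log2 difference of -0.25 (SE 0.12). In WT spermatocytes it was listed at 0 in all 3 libraries. WT cultures (mean 1.3 FPKM) and WT spermatogonia (mean 1.29 FPKM) overlapped.

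Neither inhibitory Smad was lower in the KO cultures. Smad7, which recruits ubiquitin ligases to the TGF-beta receptor, had 18.4, 17.6 and 28.7 FPKM in KO cultures, against 19.8, 17 and 15.1 FPKM in WT cultures. The KO mean was raised by the third library; without it the log2 difference of 0.28 (SE 0.16) became 0.06. In spermatogonia Smad7 had 19 and 17.2 FPKM in KO, against 14.7 and 14 FPKM in WT. Both KO libraries were above both WT libraries, with a log2 difference of 0.31 (SE 0.2). It was the only one of the 10 genes with that arrangement in spermatogonia. The share of all genes with it was not counted, so nothing is read from this.

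Smad6, which acts mainly on BMP signals, had 13.5, 13.9 and 21.6 FPKM in KO cultures, against 14.2, 12.3 and 13.9 FPKM in WT cultures. As for Smad7, the third KO library was the highest and the other libraries overlapped, with a log2 difference of 0.23 (SE 0.18). Spermatogonia held 4.41 and 4.72 FPKM in KO, against 5.27 and 3.64 FPKM in WT, a log2 difference of 0.04 (SE 0.22). Smad6 kept the highest level of the 10 genes in spermatocytes, with 0.744, 1.1 and 1.02 FPKM in KO and 1.87, 1.2 and 1.8 FPKM in WT. All KO spermatocyte libraries were below all WT ones, with a log2 difference of -0.42 (SE 0.18) that did not pass (limma adjusted p = 0.999). The share of all genes with that arrangement in spermatocytes was not counted, so nothing is read from it.

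Of the Id genes, Id1, which is among the most immediate BMP targets, was lower in KO in both preparations from pups. Its values in spermatogonia were 13 and 19.6 FPKM in KO, against 32.7 and 73.3 FPKM in WT. The WT libraries differed more from each other than the lower of them did from the KO libraries, and the log2 difference of -1.56 (SE 0.3) depended on which of them was used. It was -2.13 without the first WT library and -0.99 without the second. The cultures had 16.4, 14.9 and 17.9 FPKM in KO, against 37.9, 31.7 and 41 FPKM in WT. Both groups were tight and apart, with a log2 difference of -1.12 (SE 0.25). KO levels of Id1 overlapped between cultures and spermatogonia, and so did WT levels.

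Id3, a further BMP target, was the most abundant of these Id genes in every group of the preparations from pups except KO spermatogonia. It had 51.4, 43.8 and 36.9 FPKM in KO cultures, against 91, 85.1 and 110 FPKM in WT cultures, a log2 difference of -1.1 (SE 0.21). Spermatogonia showed 41.8 and 49.3 FPKM in KO, against 70.3 and 105 FPKM in WT, a log2 difference of -0.9 (SE 0.25). As for Id1, KO levels overlapped between the preparations and WT levels did too.

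Id2, which is also induced outside BMP signalling, had another distribution. In spermatogonia it had 47.5 and 47.2 FPKM in KO, against 55.3 and 37.7 FPKM in WT. The KO libraries lay between the WT ones, with a log2 difference of 0.05 (SE 0.29). Its levels in the cultures were 2.92, 1.62 and 1.21 FPKM in KO, against 5.74, 6.45 and 4.25 FPKM in WT. These groups did not overlap, and the log2 difference was -1.18 (SE 0.23). WT cultures held 0.118 times the mean level of WT spermatogonia, where Id1 and Id3 held 0.695 and 1.09 times.

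Cyr61, which encodes a secreted integrin ligand and is a standard readout of Yap1, had the largest log2 difference of the 10 genes in the cultures and almost none in spermatogonia. Its levels in the cultures were 9.09, 14.5 and 6.11 FPKM in KO, against 44.9, 31.2 and 42.2 FPKM in WT. The gap between the highest KO and the lowest WT library was wider than the range of the KO libraries, and the log2 difference was -1.95 (SE 0.24). Spermatogonia had 276 and 280 FPKM in KO, against 333 and 242 FPKM in WT. The KO libraries lay between the WT libraries at the highest level of any of the 10 genes, with a log2 difference of -0.03 (SE 0.3). In spermatocytes it had 0.179, 0.19 and 0.661 FPKM in KO, against 0.65, 0.233 and 0.309 FPKM in WT. From spermatogonia to spermatocytes Cyr61 spanned the widest range of the 10 genes on the log2 scale.

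Ctgf, a CCN protein induced by TGF-beta in fibroblasts, followed Cyr61. It had 4.36, 4.54 and 3.29 FPKM in KO cultures, against 15.5, 12.1 and 14.7 FPKM in WT cultures, a log2 difference of -1.58 (SE 0.22). Spermatogonia had 47.3 and 43 FPKM in KO, against 62.6 and 47.2 FPKM in WT. The upper KO library was level with the lower WT library, and the log2 difference was -0.27 (SE 0.26).

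**Figure D2:**
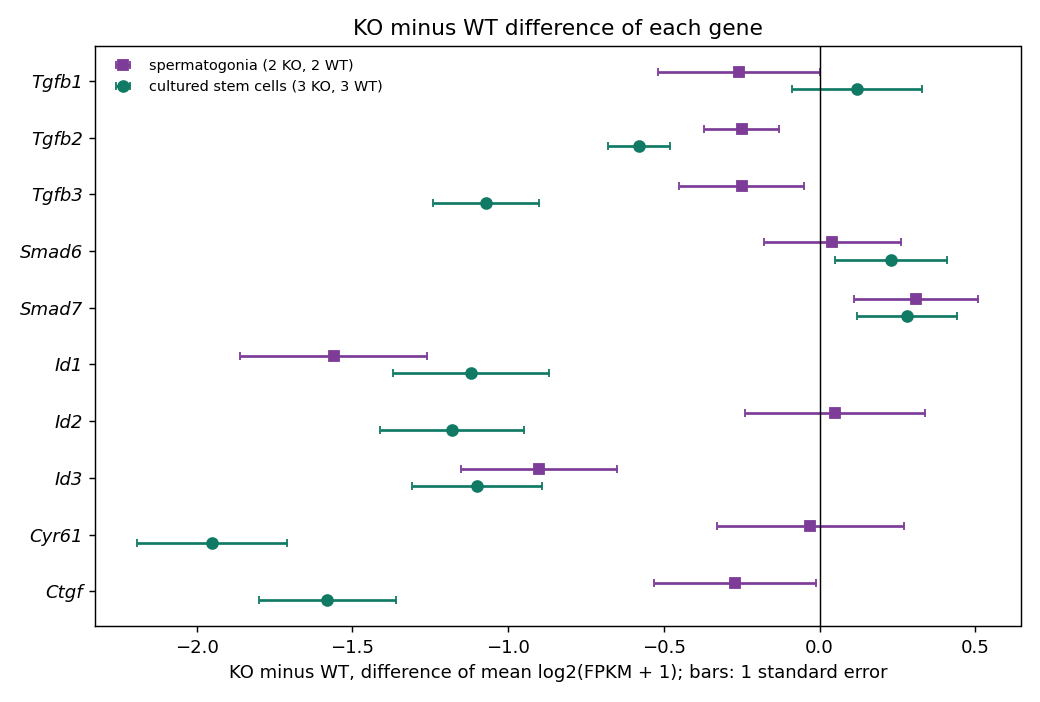
Difference of mean log2(FPKM + 1), KO minus WT, of each of the 10 genes in spermatogonia (squares) and cultured stem cells (circles), with bars of 1 standard error. Id1 and Id3 lie below 0 in both, while Tgfb3, Id2, Cyr61 and Ctgf lie below -1 in the cultures and between -0.27 and 0.05 in spermatogonia.

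The promoters of Cyr61, Id3 and Id2 are shown because these genes were lower together in the KO cultures and differ in the binding motifs their promoters hold. Each runs from 250 bases before the start site to 50 bases after it (RefSeq, GRCm38.p6), with every match to a motif in capitals. Cyr61 is read from the minus strand of chr3:145649936-145650235, Id3 from the plus strand of chr4:136143572-136143871 and Id2 from the minus strand of chr12:25096043-25096342.
Cyr61: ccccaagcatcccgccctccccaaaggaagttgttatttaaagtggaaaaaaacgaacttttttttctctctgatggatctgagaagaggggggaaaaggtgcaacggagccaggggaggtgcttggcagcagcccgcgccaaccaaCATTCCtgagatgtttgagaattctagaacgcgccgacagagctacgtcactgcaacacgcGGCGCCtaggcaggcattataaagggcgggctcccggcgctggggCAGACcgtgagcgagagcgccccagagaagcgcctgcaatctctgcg
Id3: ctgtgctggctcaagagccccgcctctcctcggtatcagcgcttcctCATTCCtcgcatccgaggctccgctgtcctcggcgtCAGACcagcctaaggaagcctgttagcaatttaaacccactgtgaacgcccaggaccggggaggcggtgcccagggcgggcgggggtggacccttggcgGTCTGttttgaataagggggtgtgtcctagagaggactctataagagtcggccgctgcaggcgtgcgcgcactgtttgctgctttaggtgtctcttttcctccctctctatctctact
Id2: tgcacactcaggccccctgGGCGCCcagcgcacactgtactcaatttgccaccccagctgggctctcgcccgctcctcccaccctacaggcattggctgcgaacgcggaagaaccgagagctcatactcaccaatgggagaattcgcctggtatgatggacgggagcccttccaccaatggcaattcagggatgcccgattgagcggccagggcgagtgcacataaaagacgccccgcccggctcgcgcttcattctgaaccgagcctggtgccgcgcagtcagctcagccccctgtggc
The motifs searched for on both strands were GGAATG (bound by Tead factors), CAGAC (Smad proteins), GGCGCC (found in BMP response elements) and the CArG box of serum response factor, and no match overlapped another. Counted from the start site, Cyr61 held CATTCC, the Tead motif read from the other strand, at position -103, GGCGCC at -42 and CAGAC at 3. Id3 held CATTCC at -203, CAGAC at -167 and its complement GTCTG at -68, and Id2 held GGCGCC at -231. Of 32851 promoters of the same length, 14.7% held the Tead motif, 49.6% the Smad motif, 11.9% GGCGCC and 1.63% a CArG box. The promoters of Tgfb1 and Smad6 held none of the motifs, and that of Tgfb2 held CAGAC at -221 and -204. Promoters of 6 of the 10 genes were looked at, and those of Tgfb3, Smad7, Id1 and Ctgf were not used here. A match is a description of letters and not a binding site.

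Set against all genes, 7 of the 10 genes passed an adjusted p of 0.05 in the cultures, all lower in KO, where 5.84% of 12046 genes were called lower and 0.324% higher. In the same 7 genes every KO library was below every WT library, an arrangement found in 11.7% of genes. In spermatogonia Id1 and Id3 passed, where 5.76% of 11997 genes were called lower and 0.917% higher. There 5 of the 10 genes (Tgfb1, Tgfb2, Tgfb3, Id1 and Id3) had every KO library below every WT library, against 34.9% of genes. In spermatocytes 2 of the 10 genes, Smad6 and Ctgf, were high enough to test and neither passed; 1 of 10271 genes did, 0.00974%, and 418 had an unadjusted p under 0.05. These counts use the same levels that the genes were chosen from, so nothing is read from them. The median log2 difference of the 10 genes was -1.09 in the cultures and -0.25 in spermatogonia, beside -0.02 and -0.06 over all genes tested.

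Calls in spermatogonia, with 2 libraries a group, moved more with the processing than those in the cultures. Of 11 alternative settings, Id1 lost its call in 3 and Id3 in 10. In the cultures the calls of Tgfb3, Cyr61 and Ctgf were kept in all 12 alternatives, with log2 differences of -1.92 to -0.81, -2.24 to -1.68 and -1.77 to -1.46.

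The difference of KO and WT was itself compared between preparations. That of Cyr61 in spermatogonia exceeded that in cultured stem cells by 1.92 (SE 0.38) on the log2 scale. The corresponding values were 1.31 (SE 0.34) for Ctgf, 1.23 (SE 0.37) for Id2 and 0.82 (SE 0.26) for Tgfb3. For Id1, Id3, Smad6, Smad7, Tgfb1 and Tgfb2 the preparations differed by -0.44 to 0.33. Of all 12935 genes tested for this difference, 1.82% passed the threshold. Cyr61 was among them, but it was chosen from these same levels, so nothing is read from that. It was not among them without either KO spermatogonia library, without the second WT one, with a pseudocount of 0.1, with a replicate block or when only the 4 groups were fitted. For Id1, the difference in spermatogonia minus that in spermatocytes was -1.61 (SE 0.39) on the log2 scale, where 2.14% of 13814 genes passed. Id1 averaged 0.255 FPKM in KO spermatocytes and 0.186 FPKM in WT spermatocytes, under the level tested there, so the value restates its difference in spermatogonia and nothing more is read from it.

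Between cell types, all 10 genes were lower in WT spermatocytes than in WT spermatogonia, with log2 differences of -1.05 for Smad6, the smallest, to -7.68 for Cyr61, where 55.2% of 13508 genes were called lower. The genes were chosen from these levels and 8 of them were under the level tested in spermatocytes, so nothing is read from the count. Cyr61 averaged 0.397 FPKM in WT spermatocytes and 288 FPKM in WT spermatogonia, and Id3 0.227 and 87.5 FPKM in the same order. WT cultured stem cells were higher than WT spermatogonia in Tgfb1 (1.03, SE 0.24) and Smad6 (1.42, SE 0.2), and 30.9% of 12611 genes were called higher. They were lower in Tgfb3 (-0.96), Ctgf (-1.88), Cyr61 (-2.83) and Id2 (-2.86), and 22.7% of genes were called lower. Id1, Id3, Tgfb2 and Smad7 did not pass there, with log2 differences of -0.41 to 0.25. The contrasts of cultures and spermatocytes share the WT spermatogonia.

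Within KO spermatocytes most of the low values were highest in the same library, which was not so in WT. Among the 3 KO spermatocyte libraries, 9 of the 10 genes were highest in the third, including Tgfb1 at 1.08 FPKM against 0.115 and 0.306 FPKM in the other KO libraries, and Id3 at 1 FPKM against 0.0746 and 0.315 FPKM. The summed Sertoli markers of that library were 87.4 FPKM, against 13.6 and 14.4 FPKM in the other KO libraries and 14.4 to 43.1 FPKM in WT libraries. Its fibroblast markers summed to 8.04 FPKM and its spermatid markers to 4795 FPKM, also the highest of the spermatocyte libraries. The third KO library also had the most rows at 1 FPKM or above of the spermatocyte libraries, 10316. Among the 3 WT libraries, 5 of the 10 genes were highest in the second and 0 in the third. The share of all genes highest in each library was not counted, so nothing is read from these counts. The Sertoli sum was highest in the second WT library, 43.1 FPKM, and the fibroblast sum in the first, 5.35 FPKM. The part of these cells in the levels was not tested.

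Beyond the 10 genes, a list of 133 other genes of TGF-beta, BMP and Hippo signalling and their targets was tested with limma on log2(FPKM + 1), with adjusted p from Benjamini and Hochberg's method over all genes tested. In cultured stem cells 103 of them were tested and 37 fell in KO, 0 rose, with a median log2 difference of -0.2; over all genes tested there, 5.84% were lower and 0.324% higher. In spermatogonia 98 were tested, of which 16 fell and 3 rose, with a median of -0.34; over all genes, 5.76% were lower and 0.917% higher. In spermatocytes 51 were tested and 0 passed, with 3 at an unadjusted p under 0.05. Both preparations from pups shared 13 of the genes that fell, which are 13 of the 37 in the cultures and 13 of the 16 in spermatogonia, and 0 rose in both. Of all 11141 genes tested in both, 1.56% were lower in both. Each of the 13 lost its call under at least 1 alternative setting in at least 1 preparation. In the cultures Tcf4 and Acvrl1 lost theirs in 9 of 12 alternatives each. Inhba, Dcn, Postn, Tagln, Vgll3 and F3 kept theirs in the cultures in all. In spermatogonia Tagln lost its call with a pseudocount of 0.1, no filter, median-ratio scaling or a replicate block. Postn lost its call there with quantile normalization or a replicate block. The list was drawn up with earlier results of these data known, so these counts are a description and no independent support.

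The list of activin subunits and of proteins that store or release the ligands also held further ligands, such as Nodal, Gdf9 and Amh. Of its genes, 6 of 10 tested fell in the cultures and 3 of 11 in spermatogonia. Inhba, which encodes the subunit of activin A, had 4.94, 4.54 and 1.53 FPKM in KO cultures, against 18, 13.7 and 11.6 FPKM in WT cultures (log2 difference -1.8, SE 0.26, limma adjusted p = 0.000593). It also fell in spermatogonia, to 2.1 and 2.02 FPKM in KO, against 5.22 and 7.45 FPKM in WT (-1.24, SE 0.31, limma adjusted p = 0.0265). Thbs1, which encodes thrombospondin-1, an activator of latent TGF-beta, fell in the cultures, with means of 23.3 FPKM in KO and 75.1 FPKM in WT (limma adjusted p = 0.00441). In spermatogonia its means of 13.4 FPKM in KO and 30.6 FPKM in WT did not pass (limma adjusted p = 0.125). Of the latent TGF-beta binding proteins, Ltbp3 passed in the cultures and Ltbp4 in spermatogonia. Ltbp3 fell in the cultures, with means of 2.04 FPKM in KO and 5.43 FPKM in WT, and Ltbp4 fell in spermatogonia, with means of 28.8 FPKM in KO and 77.6 FPKM in WT. Itgb8, a subunit of an integrin that releases TGF-beta, fell in spermatogonia, with means of 1.73 FPKM in KO and 4.37 FPKM in WT, and was under the level tested in the cultures, with means of 0.128 FPKM in KO and 0.223 FPKM in WT. Of the BMP and GDF ligands, a separate list, 1 of 5 tested fell in the cultures and 0 of 5 in spermatogonia. Among them Bmp4 did not pass in either preparation, with log2 differences of -0.4 (SE 0.32) in the cultures and -0.84 (SE 0.39) in spermatogonia.

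Of the receptors, 3 of 12 tested fell in the cultures, while in spermatogonia 2 fell and 1 rose. The co-receptor gene Tgfbr3 fell in both, with means of 2.3 FPKM in KO and 4.65 FPKM in WT in the cultures and 2.76 FPKM in KO and 5.71 FPKM in WT in spermatogonia (limma adjusted p = 0.00748 and 0.0172). Acvrl1, a type I receptor best known from endothelium, fell in both as well, by 0.52 and 0.7 on the log2 scale. Tgfbr2 fell by 0.49 in the cultures (limma adjusted p = 0.045), and its log2 difference of -0.51 (SE 0.17) in spermatogonia did not pass. The type I receptors Tgfbr1 and Bmpr1a did not pass, with means of 9.24 and 28.2 FPKM in KO cultures and 9.17 and 27.1 FPKM in WT cultures. Acvr2b, an activin receptor, rose in spermatogonia, with means of 16.5 FPKM in KO and 8.97 FPKM in WT (0.8, SE 0.19, limma adjusted p = 0.0203).

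Of the Smads that carry the signal and their partners, 1 of 9 tested fell in the cultures, the partner Runx1 (means of 1.23 FPKM in KO and 2.86 FPKM in WT), and 0 of 8 passed in spermatogonia. Of the inhibitors of the pathway, 6 of 16 fell in the cultures and 1 of 14, the proteoglycan gene Dcn, in spermatogonia. In the cultures the secreted BMP antagonist gene Nbl1 fell, with means of 2.62 FPKM in KO and 9.18 FPKM in WT (limma adjusted p = 0.000941), and so did Bmper, which encodes a modulator of BMP, with means of 0.66 FPKM in KO and 2.73 FPKM in WT (limma adjusted p = 0.00022). Pmepa1, a feedback inhibitor that TGF-beta induces, fell by 0.74 in the cultures (limma adjusted p = 0.000769), and had 4.32 and 4.57 FPKM in KO spermatogonia, against 4.51 and 4.4 FPKM in WT spermatogonia.

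Of the TGF-beta targets, 10 of 14 fell in the cultures and 5 of 14 in spermatogonia. The genes that fell in both were Acta2 and Tagln, which encode smooth muscle cytoskeletal proteins, the collagen genes Col1a1 and Col1a2, and Postn, which encodes the matrix protein periostin. Acta2 had 15.2 and 12.2 FPKM in KO spermatogonia, against 87 and 127 FPKM in WT spermatogonia (log2 difference -2.86, SE 0.47, limma adjusted p = 0.00189). Tagln had 11.5, 18.7 and 6.6 FPKM in KO cultures, against 56.6, 34.5 and 72.8 FPKM in WT cultures (-2.11, SE 0.33, limma adjusted p = 0.000963). Acta2 and Tagln also stand on the list of myoid markers, and Col1a1, Col1a2 and the inhibitor gene Dcn on the list of fibroblast markers given below.

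Of the BMP targets other than the Id genes described and of the partners of Id proteins, 1 of 10 fell in the cultures, Tcf4, which encodes an E protein bound by Id proteins, by 0.44. Of 9 tested in spermatogonia, Tcf4 fell by 0.87, while Hes1, a transcriptional repressor best known from Notch signalling, rose with means of 72.7 FPKM in KO and 33.3 FPKM in WT (limma adjusted p = 0.0123), and Runx3, a Smad partner, rose with means of 5.64 FPKM in KO and 2.85 FPKM in WT (limma adjusted p = 0.0262). Id4, the remaining Id gene, which marks spermatogonial stem cells in mice, had means of 35.1 FPKM in KO cultures and 40 FPKM in WT cultures and did not pass in either preparation, with log2 differences of -0.15 (SE 0.2) and -0.45 (SE 0.24) in cultures and spermatogonia. It was 38.7 FPKM in KO spermatocytes and 37.7 FPKM in WT spermatocytes, where Id1, Id2 and Id3 averaged under 1 FPKM.

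Of the remaining CCN genes, Wisp1 fell in both preparations, with 0.771 and 0.471 FPKM in KO spermatogonia, against 4.34 and 6.95 FPKM in WT spermatogonia, and means of 1.82 FPKM in KO cultures and 6.83 FPKM in WT cultures (limma adjusted p = 0.00171 and 0.00212). Wisp2 fell in the cultures, with means of 0.836 FPKM in KO and 2.18 FPKM in WT (limma adjusted p = 0.0012). Nov did not pass, with means of 1.23 FPKM in KO cultures and 2.48 FPKM in WT cultures, and Wisp3 was listed at or near 0 throughout.

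Yap1 itself, the coactivator of the Hippo pathway, had means of 23.7 FPKM in KO cultures and 24.9 FPKM in WT cultures and did not pass in either preparation. Of its listed targets, 6 of 10 fell in the cultures and 1 of 10 in spermatogonia. Ankrd1, a standard Yap1 target, had 0.949, 1.33 and 0.69 FPKM in KO cultures, against 3.75, 2.79 and 2.98 FPKM in WT cultures (log2 difference -1.07, SE 0.13, limma adjusted p = 0.000166). F3, which encodes tissue factor, fell in both, by 1.05 in the cultures and 1.04 in spermatogonia. Of the pathway's own genes, Vgll3, a Tead cofactor, fell in both, by 1.17 in the cultures and 0.98 in spermatogonia, and Tead1 fell by 0.74 in spermatogonia (limma adjusted p = 0.0425) but had means of 13.3 FPKM in KO cultures and 11.9 FPKM in WT cultures.

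**Figure D3:**
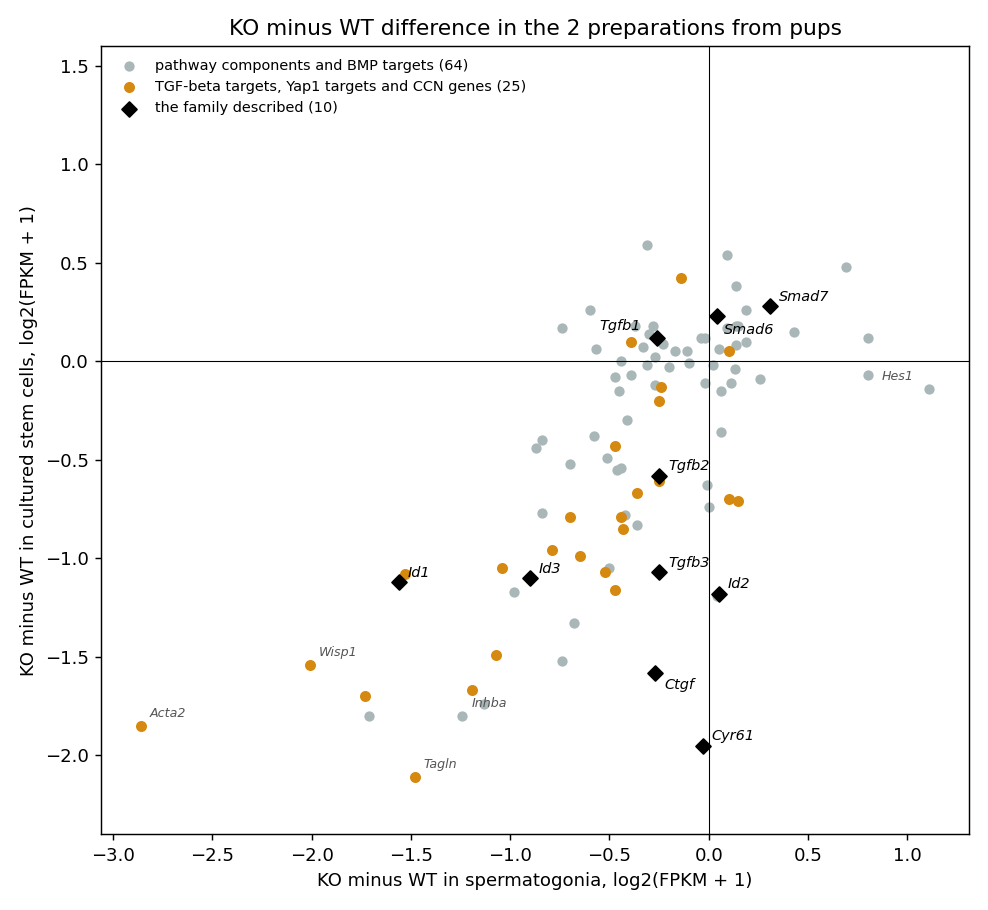
KO minus WT difference of mean log2(FPKM + 1) in cultured stem cells against that in spermatogonia, for the 10 genes (black diamonds) and the other pathway genes tested in both. Orange points are TGF-beta targets, Yap1 targets and CCN genes, and grey points are pathway components and BMP targets. Id1 and Id3 lie to the lower left, as do Acta2, Tagln and Wisp1 (orange) and Inhba (grey). Cyr61, Ctgf, Id2 and Tgfb3 lie low on the vertical axis and near 0 on the horizontal one.

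The count in the cultures was 26 to 40 when any 1 stem cell library was left out, 22 with a pseudocount of 0.1 and 13 when only the 6 stem cell libraries were fitted. That in spermatogonia was 4 without the first KO library, 10 without the second KO library, 4 without the first WT library and 7 without the second. Of the genes named here, 3 of 19 calls in spermatogonia (Acta2, Tcf4 and Wisp1) and 11 of 28 in the cultures were kept in every alternative; that of Tgfbr2 was among those lost.

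Markers of fibroblasts and feeder cells moved with genotype in the same preparations. The 10 markers summed to 107 to 206 FPKM in KO cultures and 346 to 591 FPKM in WT cultures, with 8 of 10 past the threshold and lower. In spermatogonia they summed to 191 to 205 FPKM in KO and 566 to 728 FPKM in WT, with 6 of 9 tested lower. The 7 peritubular myoid markers summed to 12.8 to 39.7 FPKM in KO cultures and 71.1 to 129 FPKM in WT cultures, and to 27 to 31.1 FPKM in KO spermatogonia and 131 to 180 FPKM in WT spermatogonia, with 4 of 5 and 5 of 7 tested lower. None of these markers was at 0 in a whole group. Of the markers of undifferentiated spermatogonia, 0 of 10 passed in the cultures and 0 of 9 in spermatogonia. The 7 markers of differentiating spermatogonia summed to 275 to 355 FPKM in KO spermatogonia and 213 to 250 FPKM in WT spermatogonia, with Dnmt3b past the threshold and higher. The 8 spermatocyte markers summed to 129 to 162 FPKM in KO spermatogonia and 91.7 to 103 FPKM in WT spermatogonia, with Ovol1 and Ybx2 of 7 tested past the threshold and higher. The 7 spermatid markers summed to 7.87 and 90.1 FPKM in the KO libraries and 6.63 and 9.48 FPKM in the WT libraries, and 0 of 4 tested passed.

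The 10 genes stood in different relations to these markers. The third KO culture had the lowest fibroblast sum, 107 FPKM, and the lowest Cyr61, Ctgf, Tgfb2, Tgfb3, Id2 and Id3 among the KO cultures, but the highest Tgfb1, Smad6, Smad7 and Id1. Among WT cultures, with sums of 591, 482 and 346 FPKM, Tgfb1, Tgfb2, Tgfb3 and Smad7 followed the order of the sum. Id1 (41 FPKM) and Id3 (110 FPKM) were highest in the WT library with 346 FPKM and Id2 was lowest in it, while Cyr61, Ctgf and Smad6 were lowest in the library with 482 FPKM. The share of all genes with these orders was not counted, so nothing is read from them. KO spermatogonia had 191 and 205 FPKM of fibroblast markers with 276 and 280 FPKM of Cyr61. KO cultures with 195 and 206 FPKM of those markers had 14.5 and 9.09 FPKM of Cyr61. These preparations also differed in Sertoli markers, which summed to 1246 to 1489 FPKM in KO spermatogonia and 8.98 to 11.3 FPKM in KO cultures. The part of any of these cell types in the differences between KO and WT was not tested.

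**Figure D4:**
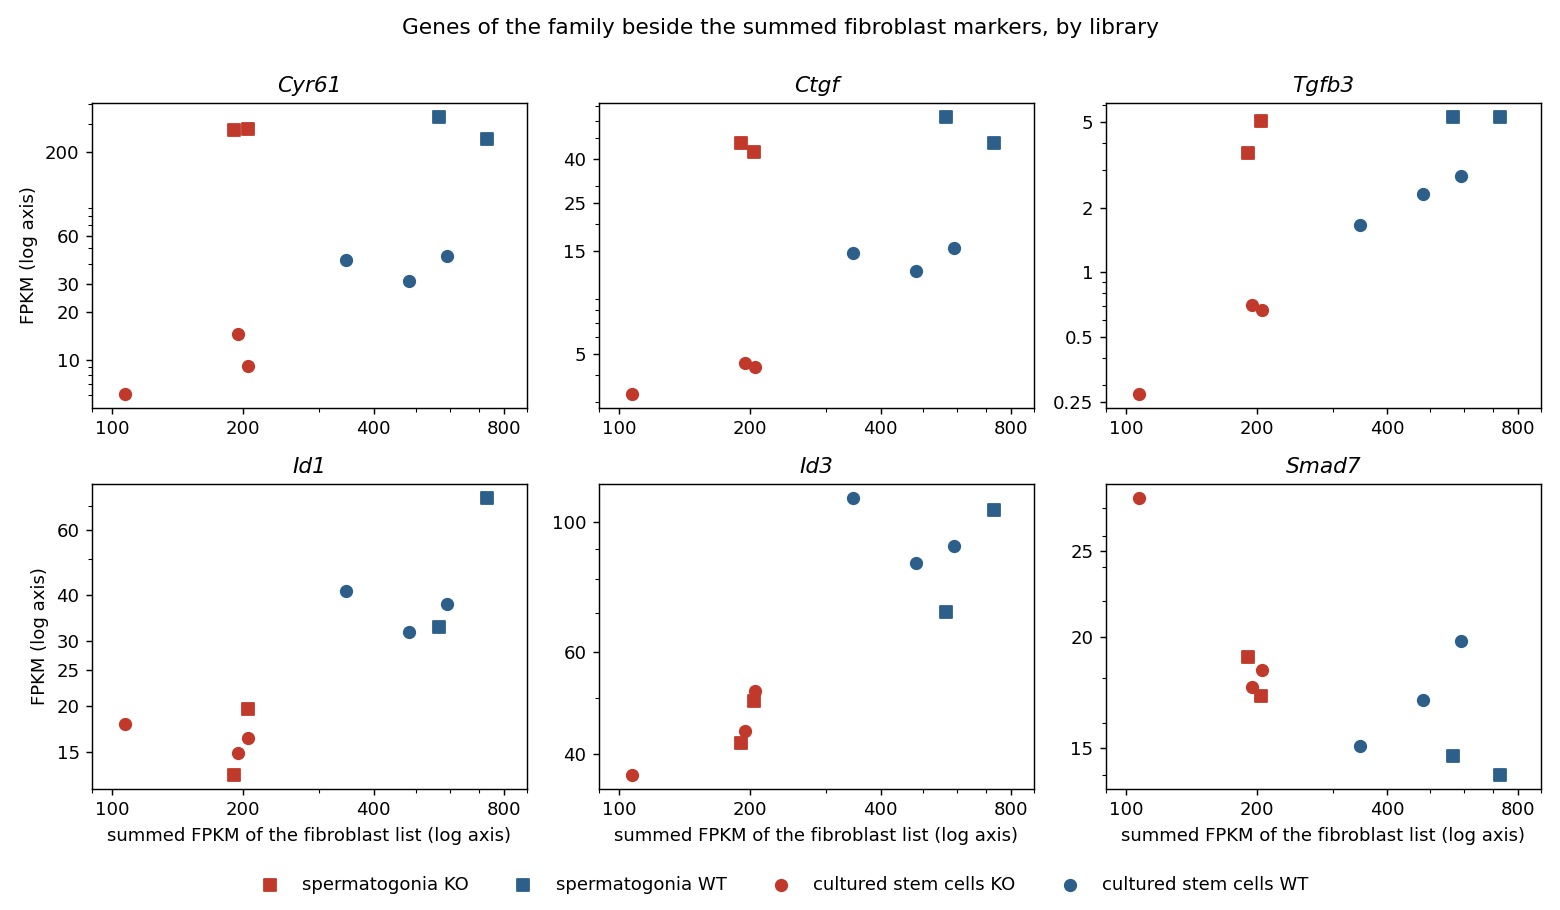
Level of Cyr61, Ctgf, Tgfb3, Id1, Id3 and Smad7 in each library of spermatogonia (squares) and cultured stem cells (circles) against the summed level of 10 fibroblast markers in the same library, with KO in red and WT in blue; both axes are logarithmic and in FPKM. KO and WT libraries are apart on the horizontal axis. Among KO libraries with sums of 191 to 206 FPKM, Cyr61 and Ctgf differ widely between the preparations while Id1 and Id3 do not. The preparations also differ in Sertoli markers, which are not shown here.

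Genes whose levels over the 16 libraries were most like those of a member were listed by Pearson's r of log2(FPKM + 1), among 11329 genes with a mean of at least 5 FPKM in a group. All values were high because the libraries share the step between spermatocytes and the rest, so they are a description with no test. Cyr61 was most like Acot1 (r = 0.997), Ctgf (0.995) and LOC100616095 (0.992). Ctgf was most like Cyr61, Snx7 (0.991) and Mdfic (0.989). Id1 was most like Ppic (0.994), Rian (0.993) and Serpinh1 (0.992), Id2 like Gja1 (0.994), Mmp23 (0.99) and Nt5e (0.989), and Id3 like Pls3 (0.997), S100a10 (0.996) and S100a11 (0.996). Tgfb1 was most like Snd1 (0.996), Tagln2 (0.995) and G6pdx (0.995), and Tgfb3 like Synpo (0.981), Zeb2 (0.981) and Ltbp3 (0.98). Smad6 was most like Ube2h (0.992), Pus7l (0.988) and Fkbp11 (0.985), and Smad7 like Kcnab3, Zfp64 and Sema4d (0.998 each). Tgfb2 stayed under 5 FPKM in every group and was not compared in this way.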

How the data were processed

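RNA was measured by sequencing in 16 libraries. Per the labels' protocols, TRIzol was used for extraction, a directional NEBNext Ultra kit for the libraries and a HiSeq-X10 for sequencing. Build mm9 and the tools Cufflinks 2.0.2 and TopHat2 2.0.6 appear in the submitters' processing notes, without settings. The authors deposited FPKM per symbol, which entered the work unchanged, and 259 symbols found on more than 1 row were left out. The members and gene lists were chosen with earlier results of these data known.

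Values were analysed as log2(FPKM + 1). In R 4.3.3, limma 3.58.1 was run two-sided with a mean-variance trend, on a model with 1 mean per group and 10 degrees of freedom left. Tested genes reached 1 FPKM in at least 2 libraries of the groups compared, and the Benjamini-Hochberg adjustment ran over all such genes with a threshold of 0.05. The procedure was tested on simulated data. Depth was recovered only in relative terms, so no counting intervals or floors were computed, and p-values measure the spread between libraries.

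Pathway genes were named when past the threshold with a mean of at least 2 FPKM in a group, up to 4 per role with the smallest p. Id4, Yap1, Tgfbr1, Tgfbr2, Bmpr1a, Bmp4 and the CCN family were named in any case. A few genes that the rule names are not reported here. Alternatives were a pseudocount of 0.1, no filter, quantile normalization, median-ratio scaling, a fit of only the groups compared, a replicate block and leaving out each library. Tables and figures used Python 3.11.15, numpy 2.4.6, pandas 2.3.3 and matplotlib 3.10.9.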

Additional observations from a re-analysis of the deposited data

Results flagged for a closer look

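Several genes were picked out because the KO effect differed between preparations by the model's test of that difference. Values are the KO minus WT difference of mean log2(FPKM + 1) in spermatogonia minus that in the second preparation. For spermatogonia minus cultured stem cells the value was 1.92 for Cyr61 and, among genes outside the family described, 1.23 for Bmper, 0.89 for Wisp2, 0.85 for Gadd45b, 0.73 for Pmepa1 and -0.86 for Itgb8, with limma adjusted p of 0.0156 to 0.046 for these 5 genes. The last of these was lower in KO spermatogonia and near 0 FPKM in the cultures, whereas the other 4 and Cyr61 were lower in the KO cultures. Wisp2 averaged 0.0814 FPKM in KO and 0.0173 FPKM in WT spermatogonia, under the level tested there, so its value restates its difference in the cultures. Cyr61, and Id1 below, were chosen from these levels, so nothing is read from their values.

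For spermatogonia minus spermatocytes the value was -1.61 for Id1, -2.91 for Acta2, -2.0 for Wisp1, -1.39 for Ltbp4, -1.01 for Tcf4 and -0.94 for Itgb8, with limma adjusted p of 0.00579 to 0.047 for the 5 genes other than Id1. Of these, Id1, Wisp1, Ltbp4 and Itgb8 averaged under 1 FPKM in spermatocytes.

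Ltbp3 was picked out because its libraries moved in opposite directions. It was under the level tested in KO against WT spermatocytes. Its KO effect in spermatogonia minus that in spermatocytes was -0.74 (SE 0.33) and did not pass (limma adjusted p = 0.337). Both KO spermatogonia libraries were below both WT ones, a difference of means of -6 FPKM. All 3 KO spermatocyte libraries were above all WT ones, by 0.272 FPKM, at 0.605 to 0.936 FPKM in KO and 0.443 to 0.549 FPKM in WT.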

How the results depend on the processing

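For the called genes named in KO against WT of spermatogonia and of cultures, no direction turned under any alternative. In spermatogonia the count of the 10 genes past the threshold, 2 as reported, was 0 with a pseudocount of 0.1 and 1 without a filter, with quantile normalization, with median-ratio scaling and with a replicate block, and 0 to 1 when a library was left out. That of the other pathway genes, 19, was 4 with a pseudocount of 0.1, 32 when only the groups compared were fitted and 4 to 10 when a library was left out. In the cultures the counts of 7 and 37 were 4 and 22 with a pseudocount of 0.1, and the 37 became 13 when only the groups compared were fitted. In spermatocytes every alternative gave 0. Against WT spermatogonia, leaving out a library gave 2 to 10 of the 10 genes and 39 to 93 pathway genes in WT spermatocytes. The low ends came from leaving out a WT spermatogonia library, after which the filter left 2 of the 10 genes to test.

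For the difference of the KO effect between spermatogonia and cultures, chosen after seeing the data, 1 member and 5 pathway genes passed. The 1 member became 0 with a pseudocount of 0.1, a fit of only the groups compared or a replicate block, and 0 to 2 when a library was left out. The 5 pathway genes became 0 with a pseudocount of 0.1 or a fit of only the groups compared, 3 with quantile normalization, 1 with median-ratio scaling, 2 with a replicate block and 0 to 5 when a library was left out. Between spermatogonia and spermatocytes 1 and 5 passed. The 1 became 0 with a pseudocount of 0.1, no filter, quantile normalization, median-ratio scaling or only the groups compared, and 0 to 1 when a library was left out. The 5 became 0 with a pseudocount of 0.1, 14 with only the groups compared and 1 to 7 when a library was left out. The cause of these shifts was not tested.

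Deviations of same-numbered KO and WT libraries correlated at -0.063 to 0.234 in the cultures, -0.342 to 0.264 in spermatocytes and -0.167 in spermatogonia. Those of different-numbered libraries correlated at -0.214 to 0.298, -0.199 to 0.383 and 0.167 in the same order. With 2 or 3 libraries a group these values cannot decide whether the numbers pair the samples. Names inside the deposited spermatogonia data carried other replicate numbers than the labels, and the labels' numbers were used. With the replicate block 33 pathway genes passed in the cultures and 16 in spermatogonia, and 7 and 1 of the 10 genes. With the numbers crossed in spermatogonia, 1 of the 10 genes and 16 pathway genes passed. Where 1 library was left out of a group of 2, the lone library was taken to vary like the other groups.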
